A study of Mus musculus with 24 samples.

Results

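Interferon-stimulated genes are the genes that a cell switches on when interferon reaches its receptors. The set described here held 39 of the 55487 rows of the deposited count table, picked by gene symbol, 28 of them known chiefly as targets of type I interferon and 11 as targets of interferon-gamma. All 39 had rows in the table and all 39 passed the filter on low counts. They were measured by RNA sequencing of kidneys from 24 male mice with X-linked Alport syndrome (XLAS), a disease of the glomerular basement membrane caused by mutation of the collagen gene Col4a5. All mice were 15 weeks old and on the B6 background, and they were either heterozygous (HET) or wild type (WT) for Nbl1, which encodes a secreted antagonist of bone morphogenetic proteins. Batch 1 held 6 HET and 6 WT mice and batch 2 held 7 HET and 5 WT mice. HET and WT here mean the Nbl1 genotype, and both groups carried the Alport disease. No mouse without the disease was among the samples, so no healthy baseline could be set beside the levels, and for the alleles behind either mutation nothing is given in the labels.

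Type I interferons bind the receptor made of IFNAR1 and IFNAR2, whose kinases JAK1 and TYK2 activate a complex that includes STAT2 and IRF9. This complex, ISGF3, binds the interferon-stimulated response element (ISRE) in front of antiviral genes. Interferon-gamma, made mainly by T cells and natural killer cells, signals through its own receptor to gamma-activated sites (GAS) in the DNA and switches on IRF1, antigen-processing genes, chemokines and the GTPases that attack intracellular microbes. Many genes answer to both, so the split into type I and interferon-gamma members is one of emphasis. In the kidney, tubular and endothelial cells as well as infiltrating leukocytes can respond to both kinds of interferon.

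Some of the members' promoters hold these elements. The 5 windows below are the 250 bases in front of the RefSeq start on GRCm38.p6, 5′ to 3′ on the strand of the gene. They are examples of windows that hold a searched motif and lie outside the exons of GENCODE M21. Windows of Gbp7, Ifit2, Oas1a, Rsad2 and Stat2 met both conditions too and are not shown. Capitals mark the ISRE core, which is GAAA, any 2 bases and GAAA again, and the GAS, TTCNNNGAA, each searched on both strands. Where motifs overlap, the capitals run together.
Isg15 (chr4:156200819-156201068, minus strand): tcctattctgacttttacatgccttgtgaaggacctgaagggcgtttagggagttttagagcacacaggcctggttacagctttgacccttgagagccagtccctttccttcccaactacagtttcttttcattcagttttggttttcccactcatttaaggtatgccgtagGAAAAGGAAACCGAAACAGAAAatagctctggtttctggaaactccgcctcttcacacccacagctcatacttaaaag
Ifit3 (chr19:34583279-34583528, plus strand): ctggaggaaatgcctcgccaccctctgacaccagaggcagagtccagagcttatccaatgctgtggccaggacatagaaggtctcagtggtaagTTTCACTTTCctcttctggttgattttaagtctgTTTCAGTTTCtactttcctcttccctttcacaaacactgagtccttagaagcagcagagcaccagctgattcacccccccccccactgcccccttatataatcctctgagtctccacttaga
Bst2 (chr8:71537473-71537722, minus strand): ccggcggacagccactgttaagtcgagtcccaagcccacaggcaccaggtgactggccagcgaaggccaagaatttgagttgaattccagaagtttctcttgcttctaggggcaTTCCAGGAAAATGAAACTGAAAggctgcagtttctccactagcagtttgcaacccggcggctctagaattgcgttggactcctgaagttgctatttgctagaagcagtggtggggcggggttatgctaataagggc
Igtp (chr11:58199306-58199555, plus strand): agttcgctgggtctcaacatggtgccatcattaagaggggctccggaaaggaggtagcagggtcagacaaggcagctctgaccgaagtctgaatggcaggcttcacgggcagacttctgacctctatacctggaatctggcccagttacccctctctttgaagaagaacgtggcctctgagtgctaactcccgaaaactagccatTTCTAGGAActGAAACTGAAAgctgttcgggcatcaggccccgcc
Irf1 (chr11:53769764-53770013, plus strand): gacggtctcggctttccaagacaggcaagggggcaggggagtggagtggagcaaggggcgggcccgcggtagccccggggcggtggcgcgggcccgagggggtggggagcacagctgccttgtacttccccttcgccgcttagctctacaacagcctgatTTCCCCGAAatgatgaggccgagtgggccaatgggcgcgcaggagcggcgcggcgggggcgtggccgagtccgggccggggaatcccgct
In the Isg15 window 3 overlapping ISRE cores ended 57 to 69 bases before the start. Ifit3 had 2 cores, and Bst2 had 2 overlapping cores that also overlapped a GAS. Igtp had 1 ISRE core and 1 GAS close to it, and Irf1 a GAS alone, 82 bases before the start.

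Of the 39 members, 29 matched the RefSeq promoter table. The ISRE core lay in the windows of 13 of these 29 (44.8%), against 3.46% of the 27025 genes with a window. It was present for 8 of 19 type I members and for 5 of 10 interferon-gamma members. The GAS lay in the windows of 7 of 29 members, against 8.13% of all genes. By class it was found for 3 of 19 type I members and 4 of 10 interferon-gamma members. The other members with an ISRE core were Gbp2, Gbp3, Gbp7, Ifit1, Irgm1, Oas1a, Oas3, Rsad2 and Stat2, and the others with a GAS were Gbp7, Ifit2, Oas1a and Psmb8. Zbp1, Mx1, Mx2, Gbp9, Usp18, Dhx58, Parp9, Rtp4, Oas2 and Parp14 had no entry. A match describes letters in a window and says nothing of binding.

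Before the results, a few facts of the libraries bear on them. Batch 1 libraries held 29551337 to 33019871 counts and those of batch 2 held 36380374 to 50746652. The 7SL RNA gene Rn7s1 took 2.31% to 2.98% of the counts in batch 1 and a ribosomal RNA gene, CT010467.1, took 4.94% to 18.0% in batch 2, so levels were compared across batches as CPM, counts scaled to a common library size after TMM scaling. Summed markers of kidney epithelium had a median of 13800 CPM in both batches, and none of these markers was at 0 in most mice. In batch 1, 3 libraries went against their Nbl1 label: the library labelled HET replicate 6 held 9.24 CPM of Nbl1 and 0 counts of its neighbour Htr6, and those labelled WT replicates 1 and 2 held 5.41 and 3.62 CPM of Nbl1 with 26 and 14 counts of Htr6. The other HET libraries held 3.86 to 7.82 CPM of Nbl1 and 8 to 49 Htr6 counts, and the other WT libraries held 7.0 to 15.1 CPM and 0 to 2 counts. Counts of members without these 3 are given below for the comparisons that use batch 1. Other values include these 3 unless stated.

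The interferon genes themselves were close to silent. Ifng, which encodes interferon-gamma, had 41 counts in all, spread over 18 of 24 libraries, with at most 5 in one. Ifnz had 26 counts over 12 libraries, with at most 4 in one, and Ifnb1 had 1 count in 1 library. The 5 interferon-alpha genes in the list (Ifna1, Ifna2, Ifna4, Ifna5 and Ifna11), Ifne, Ifnk, Ifnl2 and Ifnl3 had 0 counts in every library, which allows up to 3 counts in each. None of the interferon genes had enough counts to be tested. Their receptors were well expressed, with median counts of 1695 for Ifnar1, 725.5 for Ifnar2, 1226 for Ifngr1 and 832.5 for Ifngr2.

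Levels within the kidney were compared between genes in TPM, which allows for transcript length, within batch 2. Irgm1, an immunity-related GTPase that acts on the vacuoles of intracellular microbes and in autophagy, was highest at 35.5 ± 6.87 TPM (SD, n = 12). Ifit3, which binds viral RNA together with other IFIT proteins, followed at 18.1 ± 3.21 TPM, and the immunoproteasome subunit gene Psmb8 at 17.7 ± 4.61 TPM, a gap smaller than either SD. The transcription factor gene Irf1 stood at 14.2 ± 3.16 TPM and Bst2, which encodes the virus-tethering protein tetherin, at 13.7 ± 2.92 TPM. The order ran on through Igtp, Rsad2 and Stat2, at 13.4, 13.3 and 12.5 TPM, with gaps again below the spread. The low end was held by type I members, with Oas2 at 1.32 ± 0.291 TPM, Mx1 at 1.18 ± 0.494, Mx2 at 1.11 ± 0.41 and Oas3 at 0.349 ± 0.118. GENCODE M21 lists Mx2 as a polymorphic pseudogene. Irgm1 was also first in batch 1, at 13.4 ± 2.09 TPM (n = 12), where Stat2, Psmb8, Irf1, Bst2 and Ifit3 followed between 6.25 and 5.72 TPM. TPM levels as deposited are not compared across batches here, because abundant short RNAs took different shares of the total.

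The largest pattern in these genes separated the batches. Of the 39 members, 35 were higher in batch 2 and 0 lower by edgeR's quasi-likelihood test with genotype as a covariate (Benjamini-Hochberg adjusted p under 0.05 over 18339 genes). The background was large: 63.5% of all genes tested were called between the batches, 32.6% higher in batch 2 and 30.9% lower. The members' count of 35 of 39 in 1 direction lay above that share for higher genes. All 11 interferon-gamma members and 24 of 28 type I members were called. The median log2 fold change was 0.40 over the interferon-gamma members, 0.36 over the type I members and 0.03 over all genes tested. The 4 members not called were all of type I: Mx2 (log2 fold change 0.21, adjusted p = 0.216), Parp14 (0.09, 0.135), the RNA sensor gene Ifih1 (0.01, 0.916) and Oas3 (-0.04, 0.833).

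**Figure D1:**
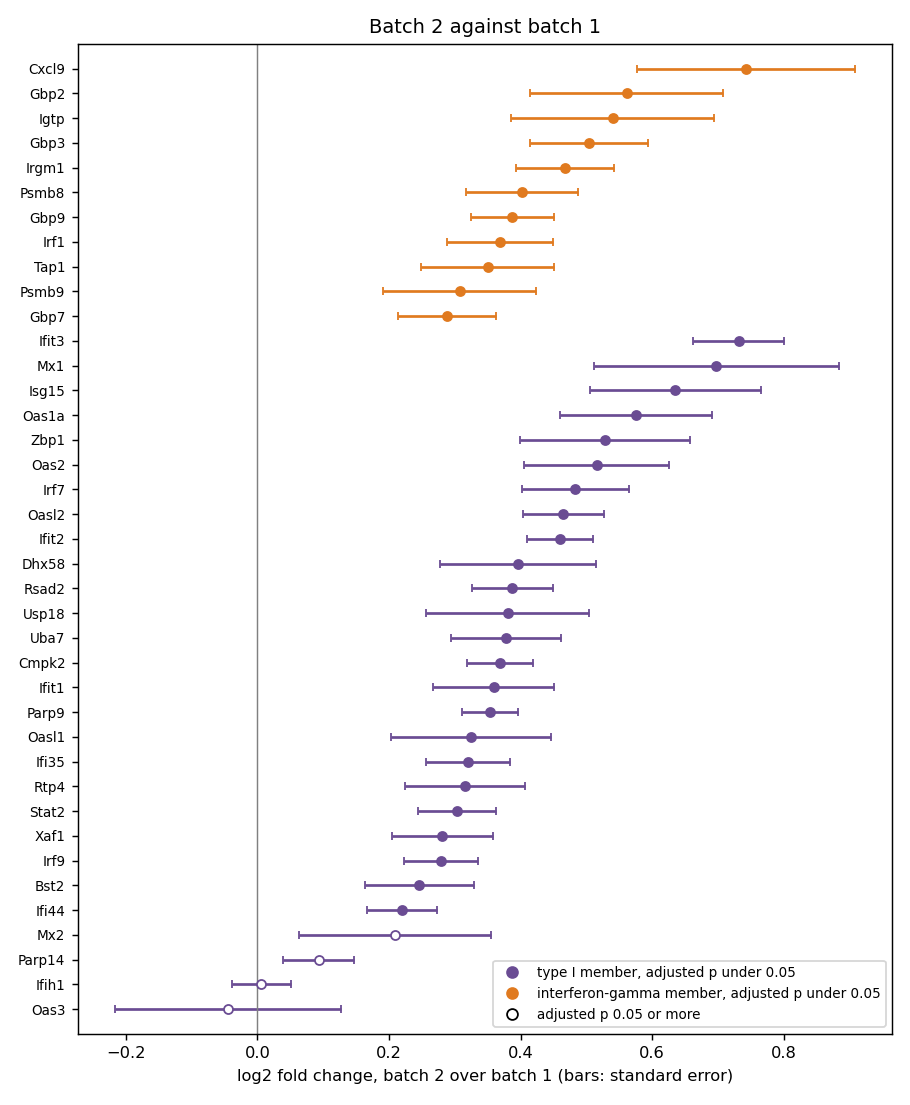
Log2 fold change of each of the 39 members in batch 2 over batch 1 with its standard error, from the fit over all 24 mice with genotype as a covariate. Filled points passed an adjusted p of 0.05; the 4 open points are Mx2, Parp14, Ifih1 and Oas3, and every other member lies above 0.

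Among the IFIT genes, Ifit3 ran from 10.8 to 15.3 CPM in batch 1, with medians of 12.4 in HET and 11.9 in WT, and from 16.2 to 23.1 CPM in batch 2, with medians of 22.1 and 20.8. Every batch 2 mouse was above every batch 1 mouse. The fitted log2 fold change was 0.73 ± 0.07 (SE; adjusted p = 1.52e-10). Ifit2, which inhibits viral protein synthesis, ran from 10.9 through 13.8 to 15.3 CPM and from 17.0 through 18.6 to 20.6 CPM, also without overlap (log2 fold change 0.46 ± 0.05, adjusted p = 2.65e-09). These were the only 2 members whose batches did not overlap, 5.13% of the set, against 6.55% of all genes tested that were higher in batch 2 without overlap. Ifit1 rose with a log2 fold change of 0.36. Ifit1 and Ifit3 have near-identical relatives, and their deposited counts held fractions in 22 and 24 libraries, so part of their reads may have been shared.

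In the ISG15 system, which attaches a ubiquitin-like protein to other proteins, the 3 members Isg15, Uba7 and Usp18 rose, with Isg15 itself (0.908, 1.24 and 2.04 CPM against 1.26, 1.95 and 2.42 CPM as lowest, median and highest) at a log2 fold change of 0.64. The batches overlapped for Isg15, with 5 of 12 batch 2 mice above every batch 1 mouse. Uba7, the enzyme that activates ISG15, was at 0.38 and Usp18, which removes it and dampens receptor signalling, at 0.38. In the oligoadenylate synthetase family, which makes the second messenger that activates RNase L, or binds RNA, Oas1a was at 0.58, Oas2 at 0.52, Oasl2 at 0.47 and Oasl1 at 0.32, and all passed. Oasl2 ran from 9.18 through 10.8 to 12.9 CPM in batch 1 and from 12.3 through 15.4 to 17.4 CPM in batch 2, with 11 of 12 batch 2 mice above every batch 1 mouse. Oas1a and Oas3 held fractional counts in all 24 libraries.

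Of the transcription factors, Irf7, the regulator that amplifies type I responses, ran from 6.69 through 7.55 to 9.69 CPM in batch 1 and from 8.61 through 10.5 to 15.0 CPM in batch 2 (log2 fold change 0.48 ± 0.08, adjusted p = 6.32e-06). The batches overlapped, with 8 of 12 batch 2 mice above all of batch 1. Stat2 and Irf9, partners in ISGF3, were at 0.30 and 0.28, and Irf1 at 0.37, and all 3 passed. Among the other type I members Mx1 was at 0.70 (0.47 in HET alone, edgeR adjusted p = 0.151) and Zbp1, a nucleic acid sensor, at 0.53. Dhx58 was at 0.40, Rsad2, which encodes viperin, at 0.39, Cmpk2 at 0.37 and Parp9 at 0.35 ± 0.04. Ifi35, Rtp4, Xaf1, Bst2 and Ifi44 lay between 0.22 and 0.32, and all passed.

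The interferon-gamma members rose in each of their roles. Cxcl9, a chemokine that draws T cells through CXCR3, ran from 1.45 through 1.99 to 5.28 CPM in batch 1 and from 2.67 through 3.71 to 5.32 CPM in batch 2. WT replicate 5 of batch 1, at 5.28 CPM, lay above 11 of the 12 batch 2 mice. The log2 fold change of 0.74 ± 0.17 (adjusted p = 0.00031) was 0.60 in WT mice alone (adjusted p = 0.138) and 0.04 on TPM rescaled by median ratios (adjusted p = 0.823 by limma). The guanylate-binding proteins and immunity-related GTPases gave 0.56 for Gbp2, 0.54 for Igtp, 0.50 for Gbp3, 0.47 for Irgm1, 0.39 for Gbp9 and 0.29 for Gbp7. Gbp2 ran from 8.27 through 11.3 to 17.7 CPM and from 13.1 through 16.4 to 28.6 CPM, with 4 of 12 batch 2 mice above all of batch 1. In HET mice alone its adjusted p was 0.0574. For antigen processing, Psmb8 was at 0.40, the peptide transporter gene Tap1 at 0.35 and the immunoproteasome gene Psmb9 at 0.31.

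The same difference was measured within each genotype. In HET mice 26 members were called higher in batch 2 and 0 lower, where 51.3% of all genes were called and 24.3% were higher. In WT mice 28 were called higher and 0 lower, where 50% of all genes were called and 23.4% were higher. Besides the 4 named above, the members not called in HET mice were Mx1, Usp18, Ifi44, Bst2, Xaf1, Rtp4, Uba7, Gbp2 and Psmb9, and those not called in WT mice were Ifit1, Oasl1, Dhx58, Cxcl9, Gbp7, Tap1 and Igtp. The medians in HET were 0.32 for type I and 0.34 for interferon-gamma members, and in WT 0.42 and 0.46. Without the 3 libraries that went against their label, 33 members were called higher over all mice and 0 lower. In HET mice 26 were then called higher and in WT mice 22, with 0 lower in each. Of all genes, 11283 of 18528 were then called in either direction over all mice, 9176 of 18558 in HET and 8623 of 18781 in WT. Whether the 2 genotypes or the 2 classes differed in the size of this change was not tested here class by class, and the test by gene is the interaction given last.

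Other genes of the pathway were read in the same test, where 32.6% of all genes were called higher in batch 2 and 30.9% lower. Of 49 further interferon-stimulated genes, 37 were called higher and 2 lower in batch 2, with a median log2 fold change of 0.34. Those of smallest p were Ifitm2 (0.45), which restricts viral entry, Psme2 (0.34) and Psme1 (0.28), the activators of the immunoproteasome, and Ifit3b (0.61). The 2 lower genes were Herc6, the mouse ISG15 ligase, at -0.29 and the helicase gene Ddx60 at -0.38. Of 15 receptors, kinases and negative regulators, 7 were called higher and 1 lower. At an unadjusted p under 0.05 by edgeR there were 53.3% of this list, below the 66.3% of all genes. The higher genes included Il10rb (0.30), Ptpn6 (0.32), Ifnar2 (0.24) and Jak1 (0.17), and the lower one was Socs1, which inhibits JAK kinases, at -0.54 (adjusted p = 0.0331). Of 18 tested genes of nucleic acid sensing, 11 were called higher and 0 lower, with Samhd1 at 0.30, Myd88 at 0.34, Mavs at 0.23 and Sting1 at 0.54.

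Cell type markers were compared between the batches too, where 32.6% of all genes were called higher in batch 2 and 30.9% lower. The summed CPM of 10 macrophage markers ran from 277 through 322 to 422 in batch 1 and from 375 through 539 to 614 in batch 2. All 10 were called higher, with a median log2 fold change of 0.59. The antigen presentation gene Cd74 (0.64) was the largest part of that sum, with 202472 counts over all libraries. Csf1r, the next, had 54322 counts and was at 0.39. The macrophage sum therefore follows Cd74 first and is not a count of cells. Of 6 endothelial markers all 6 were called higher, and their sums did not overlap, at 306 to 391 CPM and 433 to 491 CPM. Of 10 kidney epithelium markers 5 were called higher, among them Slc12a1 (0.45) and Umod (0.44) of the thick ascending limb, and 1 lower, Lrp2 of the proximal tubule (-0.465), while the summed medians were equal. Of 8 tested T and natural killer cell markers 3 were called higher, with summed medians of 6.08 and 7.69 CPM. At an unadjusted p under 0.05 by edgeR there were 60% of the epithelial and 50% of the T and natural killer cell markers. Of all genes 66.3% had such a p, so these 2 lists did not stand out from the background. Of 8 B and plasma cell markers 0 were called by edgeR, with 0 at an unadjusted p under 0.05 as well and summed medians of 16.1 and 14.8 CPM. Neutrophil markers fell for 2 of 4 tested genes, Cxcr2 (-1.41) and S100a8 (-1.25), with sums of 6.55 and 3.98 CPM at the median. That sum was mainly Cxcr2, with 1927 counts over all libraries, and Csf3r, with 1576. Csf3r went the other way (0.33, edgeR adjusted p = 0.0712), and Ly6g and Retnlg were not tested. The neutrophil sum is therefore not a count of cells. A list of plasmacytoid dendritic cell markers gave 1 higher and 2 lower of 5 tested, at 80.8 and 65.3 CPM. That sum was mainly Tcf4 (-0.29), with 57186 counts over all libraries against 3147 for Runx2 (-0.28), the other lower gene. Spib was the higher one (0.63), and Siglech, with 363 counts, was at 0.08 (edgeR adjusted p = 0.769). The sum thus does not measure these cells. No marker of these lists was at 0 in most mice. The part of these cells, of library composition and of the batch itself in the rise of the interferon-stimulated genes was not tested. In bulk tissue, more cells of a type and more RNA per cell cannot be told apart.

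**Figure D2:**
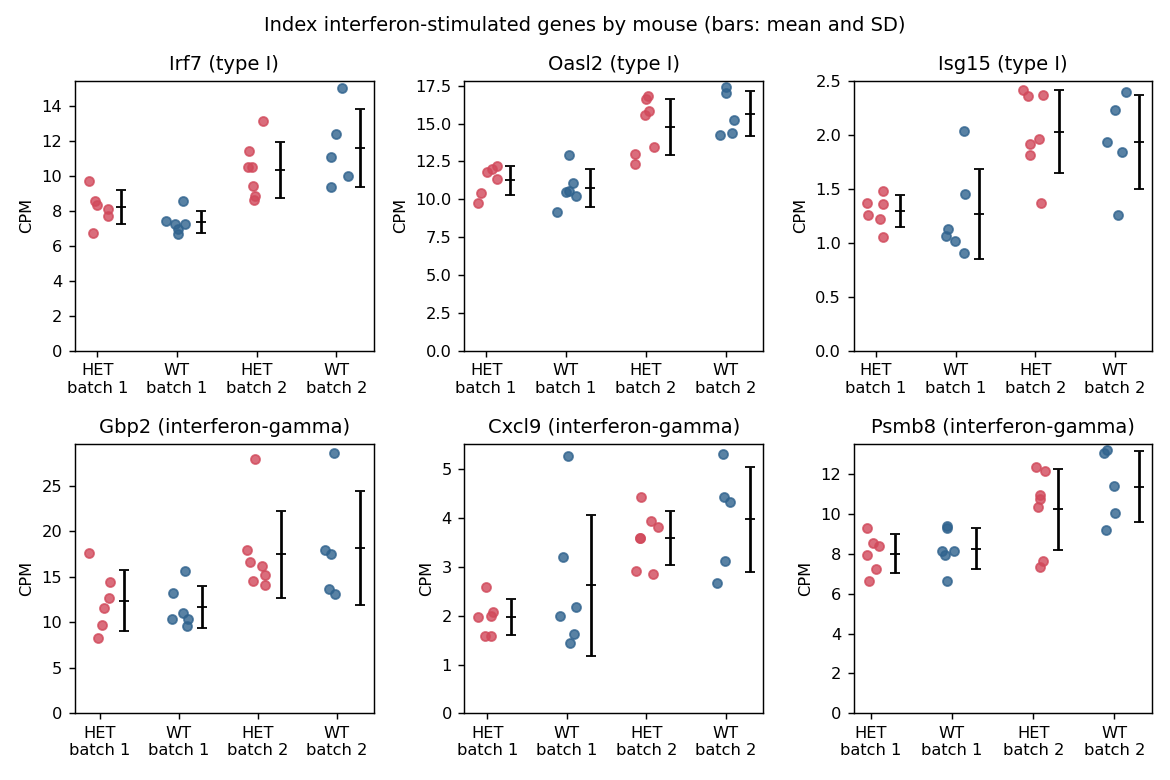
Level in CPM, after TMM scaling, of 3 type I and 3 interferon-gamma members in each mouse by genotype and batch, with the mean and SD of each group (n = 6, 6, 7 and 5). Batch 2 lies above batch 1 for each gene with overlap, while HET and WT of 1 batch overlap for each gene.

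Between mice of 1 genotype and batch, the members' median spread was larger than that of all genes tested. The SD of log2 CPM, with the genotype-by-batch means removed, had a median of 0.21 over all members, 0.20 over type I members and 0.24 over interferon-gamma members. Over all genes tested it was 0.16, and it was also 0.16 over the 10744 genes within the members' range of expression. The widest were Mx1 at 0.48, Oas3 and Cxcl9 at 0.42 each, Igtp at 0.37 and Gbp2 at 0.36. Mx1 and Oas3 were also among the lowest in level, at a mean of 1.15 CPM each, where counting error is a larger share of the spread. The steadiest were Parp9 at 0.10 and Ifih1 at 0.11.

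Single mice stood out for many members at once. In batch 2, WT replicate 8 was the highest mouse for 14 of 39 members, 6 of them interferon-gamma members, and WT replicate 7 was the lowest for 10. Gbp2 was 28.6 CPM in WT replicate 8 and 27.9 CPM in HET replicate 11, against 13.1 to 17.9 CPM in the other 10 mice of the batch. Igtp reached 33.8 CPM in HET replicate 11 and 24.6 in WT replicate 8, against 12.9 to 20.8 CPM in the others, and Irgm1 reached 68.5 and 64.3 CPM in the same mice, against 43.2 to 55.4 CPM. In batch 1, WT replicate 5 was highest for 10 members and the library labelled HET replicate 6 for 9, while the library labelled WT replicate 2 was lowest for 11. Cxcl9 in WT replicate 5 was 5.28 CPM, against 1.45 to 3.21 CPM in the other 11 mice of that batch.

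The mean log2 CPM of a class in each mouse served as its score. The type I score ranged from 2.30 to 2.65 in batch 1 and from 2.62 to 2.995 in batch 2, and the interferon-gamma score from 3.05 to 3.67 and from 3.45 to 4.16. Mice high in one class were not always high in the other. HET replicate 3 had the highest type I score of batch 1, at 2.65, with an interferon-gamma score of 3.12, near the bottom. HET replicate 10 had the lowest type I score of batch 2, at 2.62, with an interferon-gamma score of 3.78, above the batch median of 3.75.

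**Figure D3:**
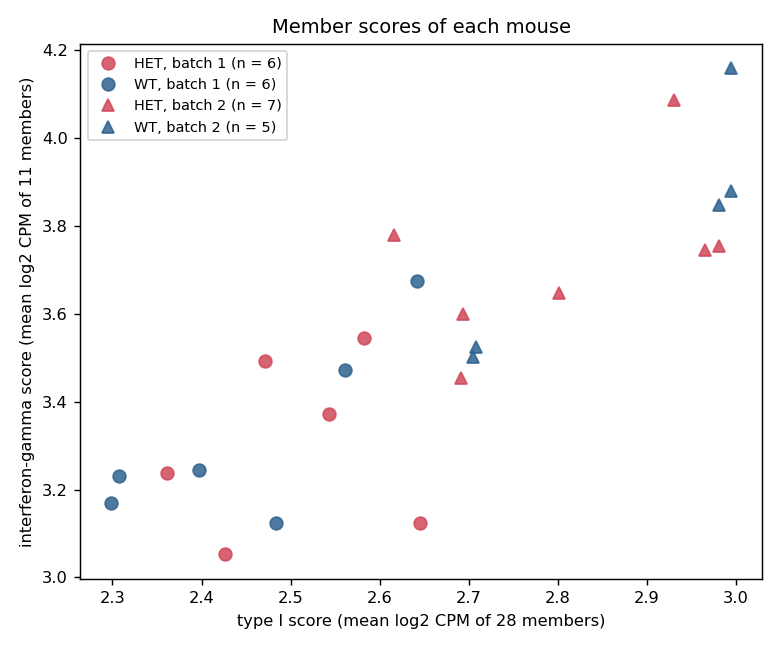
Interferon-gamma score against type I score of each of the 24 mice, both as the mean log2 CPM of their members, by genotype (colour) and batch (shape). Batch 2 mice lie to the upper right, from 2.62 to 2.995 on the type I axis, and HET and WT mice are mixed within each batch.

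The 2 classes differed in how tightly their members moved together from mouse to mouse. With the genotype-by-batch means removed, Pearson's r over 24 mice had a median of 0.63 over the 55 pairs of interferon-gamma members, from 0.10 to 0.91, and all 55 were positive. Over the 378 pairs of type I members the median was 0.33, from -0.50 to 0.76, and 339 were positive. Pairs across the classes, 308 in all, had a median of 0.31. The highest values within the interferon-gamma class were Irgm1 with Igtp at 0.91, Gbp2 with Irgm1 at 0.89 and Gbp2 with Tap1 at 0.88. HET replicate 11 and WT replicate 8 stood above all other batch 2 mice for Gbp2, Igtp and Irgm1, and r without them was not computed for these pairs. The lowest values were Gbp7 with Psmb8 at 0.10, Gbp7 with Psmb9 at 0.23 and Gbp9 with Igtp at 0.30. Of the type I members, Oas1a, Zbp1 and Parp14 had the highest median r with the rest of their class, at 0.51, 0.50 and 0.50, and Ifih1 (0.02), Rsad2 (0.09) and Ifi44 (0.10) the lowest. These medians are a description, since pairs share genes, libraries and depth. The classes also differed in level, with the lowest mean at 3.03 CPM in the interferon-gamma class (Cxcl9) and 1.14 CPM in type I (Mx2). Ifih1, Rsad2 and Ifi44, of lowest median r, were at 22.1, 31.6 and 14.1 CPM. The part of level and counting error in the 2 medians was not tested.

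**Figure D4:**
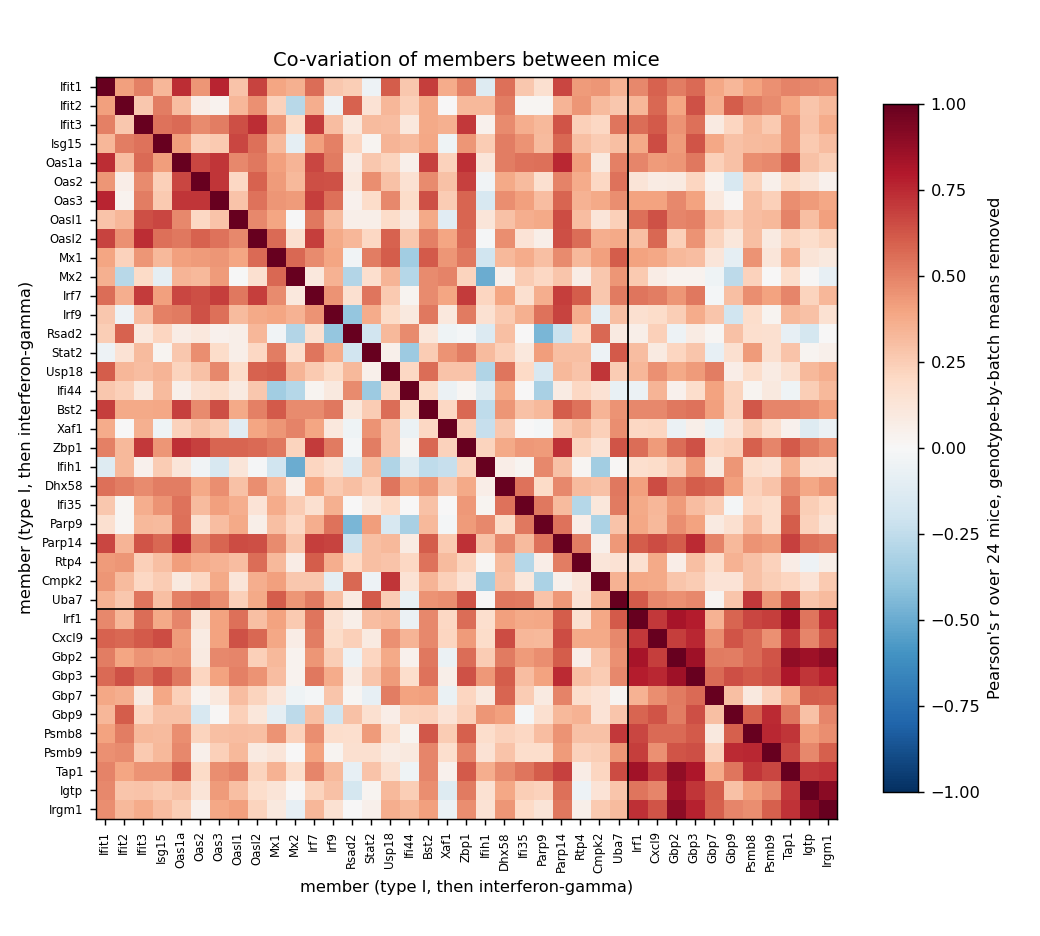
Pearson's r of every pair of members over 24 mice after the genotype-by-batch means were removed, with black lines between the type I and the interferon-gamma members. The lower right block of interferon-gamma members is positive throughout (0.10 to 0.91), while the type I block ranges from -0.50 to 0.76.

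For 9 genes, among them the 6 index members, the T cell gene Cd3e and the macrophage gene C1qa, all 36 pairs were tested by 100000 permutations within genotype and batch, two-sided, with p adjusted over the 36. Within the interferon-gamma class Gbp2 and Cxcl9 had r = 0.691 and rho = 0.749 (p = 1e-05, the smallest these permutations can give; adjusted p = 0.00036, and 0.0018 for rho), with r = 0.694 in batch 1, 0.775 in batch 2 and 0.686 without the 2 mice farthest from the median. Within the type I class Irf7 and Oasl2 had r = 0.688 and rho = 0.745 (p = 0.00052, adjusted p = 0.00468, and 0.0027 for rho), with 0.748 and 0.670 in the batches and 0.797 without the 2 farthest mice. Across the classes Oasl2 and Gbp2 had r = 0.235 and rho = 0.301 (p = 0.291, adjusted p = 0.299, and 0.174 for rho), with 0.142 and 0.307 within batches and 0.147 without the 2 farthest mice. A p of that size does not show that they vary independently, and Oasl2 with Cxcl9 did pass (r = 0.571, rho = 0.505, permutation p = 0.00448, adjusted p = 0.0174, and 0.0414 for rho; 0.607 and 0.590 within batches, 0.425 without the 2 farthest mice).

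By r, C1qa passed with 5 of the 6 index members and Cd3e with 3 of 6. Fewer pairs passed by rho. C1qa passed by rho with Irf7 and Oasl2, but not with Isg15, Cxcl9 or Psmb8 (adjusted permutation p = 0.0704, 0.0542 and 0.05). Cd3e passed by rho with Irf7 (adjusted permutation p = 0.0414) and Psmb8, but not with Gbp2 or Cxcl9 (0.0892 and 0.0609). C1qa did not pass with Gbp2 (r = 0.330, rho = 0.320, permutation p = 0.156, adjusted p = 0.18, and 0.168 for rho; -0.0471 and 0.563 within batches, 0.239 without the 2 farthest mice). By r, Cd3e did not pass with Irf7, Oasl2 or Isg15 (r = 0.435, 0.460 and 0.442, adjusted permutation p = 0.0664, 0.0664 and 0.0681), nor by rho with Oasl2 or Isg15 (0.0907 and 0.113). C1qa, the macrophage marker, had r = 0.681 and rho = 0.721 with Irf7 (permutation p = 0.00162, adjusted p = 0.00972, and 0.00533 for rho), with 0.547 and 0.742 within batches and 0.665 without the 2 farthest mice. Cd3e, the T cell marker, had r = 0.612 and rho = 0.518 with Psmb8 (permutation p = 0.00316, adjusted p = 0.0163, and 0.0363 for rho), with 0.629 and 0.632 within batches and 0.586 without the 2 farthest mice. Whether one of these correlations differs from another was not tested.

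The labelled comparison was HET against WT, the effect of partial loss of Nbl1 in mice with this disease. Over all mice with batch as a covariate, 0 of 39 members were called by edgeR, as were 0 of 18339 genes (percent called 0), while 1 member and 755 genes had an unadjusted p below 0.05. DESeq2 also called 0 members. The log2 fold changes of the members had medians of -0.02 for type I and 0.00 for interferon-gamma, against 0.01 for all genes. Of the members 18 were positive and 21 negative, where 56.3% of all genes were positive. Without the 3 libraries that went against their label, 0 members were called and 7 were positive and 32 negative, with 2 at an unadjusted p under 0.05. Directions below rest on the labels as given.

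The member with the smallest p was Gbp9, a guanylate-binding protein, at -0.13 ± 0.06 (log2 fold change and SE; edgeR adjusted p = 0.997). Its counts held fractions in 16 libraries. Rtp4, an inhibitor of viral replication, was at 0.18 ± 0.09, Cxcl9 at -0.27 ± 0.17 and Oasl1 at -0.16 ± 0.12. Tap1 was at -0.14, Oas2 at -0.12 and Psmb8 at -0.10. The 95% interval was -0.13 to 0.11 for Oasl2, -0.17 to 0.15 for Irf7 and -0.28 to 0.30 for Gbp2, so a difference of the size measured between the batches lay outside the interval for each of these 3. No member passed the test against the spread between mice.

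Within batch 1, with 6 HET and 6 WT mice, 0 members and 0 of 18494 genes were called (percent called 0), and 1 member, Rtp4 (2.56%), had an unadjusted p under 0.05, against 2.82% of all genes. DESeq2 called 0 members as well. The medians were 0.03 for type I and 0.02 for interferon-gamma members, and 0.00 for all genes. Of the members 25 were positive and 14 negative, where 49.4% of all genes were positive. The count turned to 15 positive and 24 negative without the 3 libraries named above. In that fit 0 members and 2 of 18709 genes were called by edgeR, and 3 members had an unadjusted p under 0.05. Rtp4 ran from 3.77 through 4.59 to 6.02 CPM in HET and from 2.83 through 3.73 to 4.18 CPM in WT, so the groups overlapped (log2 fold change 0.37 ± 0.14, edgeR adjusted p = 1). Irf7 ran from 6.76 through 8.23 to 9.69 CPM in HET and from 6.69 through 7.24 to 8.58 CPM in WT (0.16 ± 0.09). Cxcl9 ran from 1.59 through 1.98 to 2.60 CPM and from 1.45 through 2.09 to 5.28 CPM (-0.41 ± 0.28).

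Within batch 2, with 7 HET and 5 WT mice, 33 of 39 members were negative, 25 of 28 of type I and 8 of 11 of interferon-gamma. Of all genes 50.1% were positive. The medians were -0.08 in both classes and 0.00 over all genes. Members varied together between mice, so their signs are not separate observations. With each library left out in turn the type I median ran from -0.12 to -0.04, and the interferon-gamma median from -0.22 without HET replicate 11 to 0.03 without WT replicate 8. None was called by edgeR, where 0.00557% of 17955 genes, the single gene Htr6, passed, and 2 members, Gbp9 and Xaf1 (5.13%), had an unadjusted p under 0.05, against 8.28% of all genes. Of the other lists, 38 of 49 further interferon-stimulated genes, 16 of 18 sensing genes and 9 of 10 macrophage markers were negative, the last with a median of -0.07. The macrophage sums, of which Cd74 was the largest part, were 375 to 592 CPM in HET and 389 to 614 CPM in WT. So were 6 of 8 tested T and natural killer cell markers and 6 of 8 B and plasma cell markers, each with a median of -0.08. Of endothelial markers 4 of 6 were negative, and of tested plasmacytoid dendritic cell markers 4 of 7. The remaining lists did not lean that way: 8 of 15 receptors, kinases and negative regulators, 6 of 10 kidney epithelium markers and 3 of 3 tested neutrophil markers were positive. The ribosomal RNA gene CT010467.1 took 7.17% to 18.0% of the counts in HET and 4.94% to 11.6% in WT in this batch. The part of either in the members' lean was not tested.

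Gbp9 in batch 2 held 14.0, 14.3, 13.1, 16.1, 13.9, 12.8 and 13.5 CPM in HET replicates 7 to 13 and 15.2, 18.3, 17.5, 18.3 and 15.6 CPM in WT replicates 7 to 11. Only HET replicate 10 reached into the WT range. The fitted log2 fold change was -0.30 ± 0.07 (edgeR adjusted p = 0.483), and the DESeq2 Wald test, which called 27 genes in this batch, called it at an adjusted p of 0.0495. In batch 1 Gbp9 was at 0.02 ± 0.09. Xaf1, a pro-apoptotic interferon target, held 4.75, 4.69, 4.51, 4.69, 4.72, 3.78 and 5.47 CPM in the same HET mice and 5.27, 5.30, 5.33, 6.01 and 5.38 CPM in the WT mice. HET replicate 13 alone lay within the WT range, and the fit gave -0.24 ± 0.09 (edgeR adjusted p = 0.585). The next by p was Stat2 at -0.18 (0.603), while Oas2, Tap1, Mx1, Usp18, Uba7 and Psmb9 had values from -0.20 to -0.18. Igtp at 0.16, Gbp7 at 0.11 and Ifit1 at 0.10 had the highest positive values in the batch, and none of them passed.

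**Figure D5:**
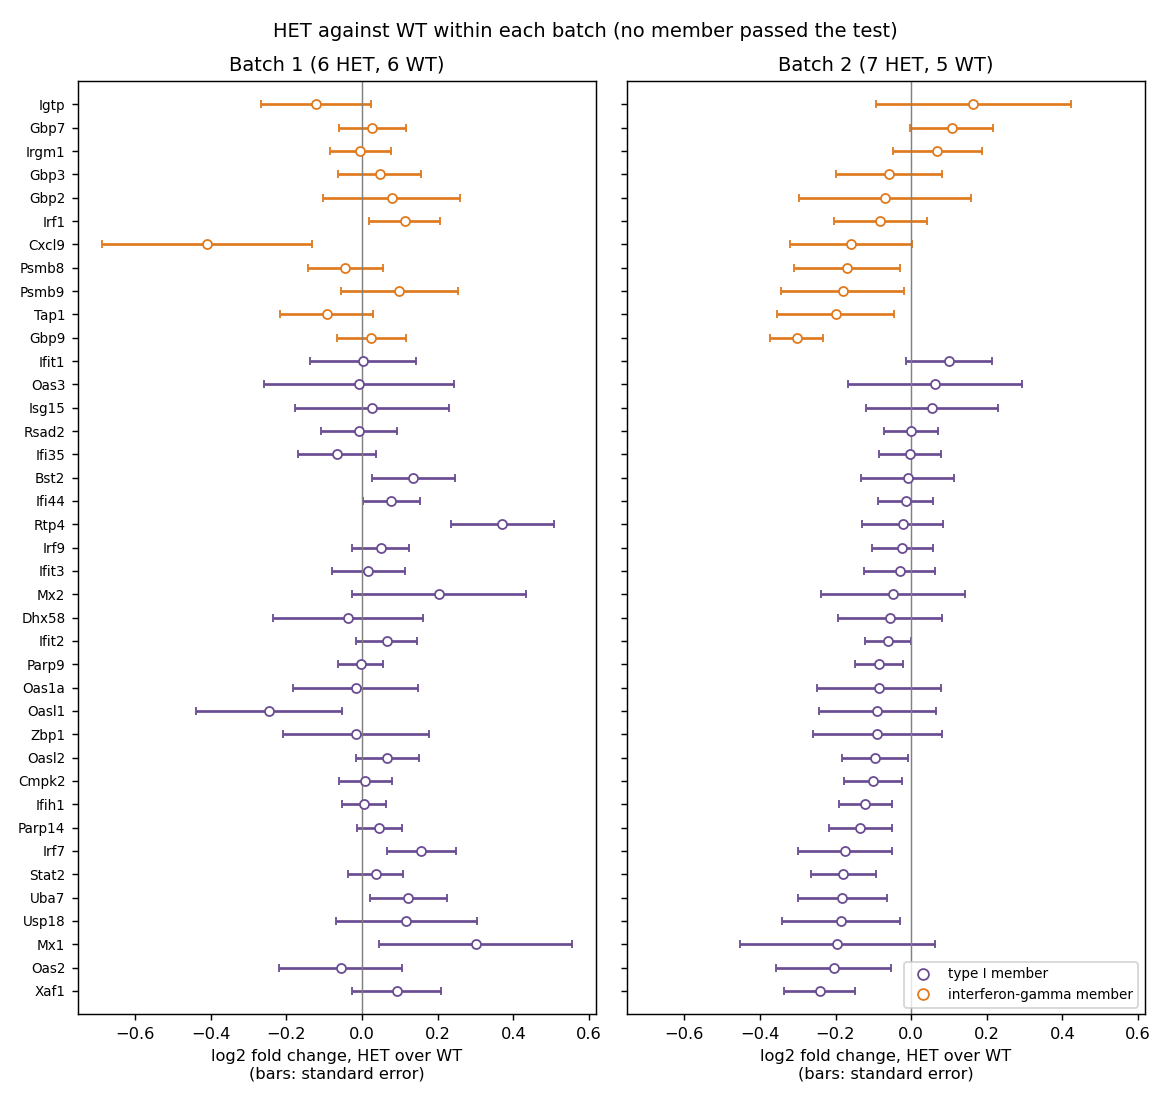
Log2 fold change of each member, HET over WT, with its standard error in batch 1 (left) and batch 2 (right), in the order of the batch 2 values within each class. Of the 39 members 25 lie above 0 in batch 1 and 6 in batch 2, and none passed edgeR's test in either.

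The difference between the batches in the genotype effect was tested as an interaction. None of the members and 0 of 18339 genes were called by edgeR (percent called 0), nor were any members by DESeq2. The interaction was negative, meaning lower in batch 2, for 29 members and positive for 10, where 55.3% of all genes were positive. The medians were -0.10 for type I and -0.09 for interferon-gamma members and 0.02 for all genes. At an unadjusted p under 0.05 there were 4 members, Gbp9 (-0.31), Xaf1 (-0.32), Rtp4 (-0.38) and Irf7 (-0.32), each with an edgeR adjusted p of 0.557 to 0.606. That was 4 of 39, where 8.2% of all genes had such a p. Without the 3 libraries that went against their label 24 members were negative and 15 positive. In that fit 0 members and 0 of 18528 genes were called by edgeR, and 2 members had an unadjusted p under 0.05.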

How the data were processed

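The authors deposited 1 table with expected counts, TPM and FPKM for every library. The submitters' processing notes name fastp, STAR, featureCounts and the build GRCm38 (mm10), with versions, annotation and strand setting not given in the sources used here. An mRNA library kit is named in the labels' protocols. The deposited expected counts held fractions, as can arise where reads are shared, and were rounded to whole numbers before testing. How the fractions arose is not stated in the sources used here. Among members, Stat2, Xaf1 and Igtp also held fractions in 23 libraries each. The TPM values were used as the authors deposited them, on the scale of log2(TPM + 1), or log2(TPM + 0.1) as an alternative. FPKM was not used. All per-sample columns had a sample (0 without one). Of 55487 identifiers 55227 were found in GENCODE M21.

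Counts were tested with edgeR 4.0.16 in R 4.3.3: filterByExpr with a minimum count of 10, TMM scaling, robust quasi-likelihood fits and Benjamini-Hochberg adjustment over all genes tested at 0.05. CPM are after TMM scaling, and log2 CPM uses a prior count of 2. The SE was taken from the log2 fold change and its F statistic. Intervals at 95% are the estimate plus and minus 1.96 SE. This normal quantile makes them somewhat narrower than a t quantile would. Alternatives used RLE scaling, no filter, DESeq2 1.42.0, limma 3.58.1 on log2 TPM and each library left out in turn. Chosen after the data were seen were the fits without the 3 libraries and those on TPM rescaled by median ratios. Tests were tried on simulated counts.

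The members and the other lists were chosen with earlier results of these data known. Values by group are given for 6 index members (Irf7, Oasl2, Isg15, Gbp2, Cxcl9, Psmb8), members of highest TPM, widest spread or smallest p, and others are summarised. Each label names a separate mouse library, and replicates were numbered in deposition order. HET replicate 8 has 1 animal number in its title and another in its library name, and was matched by the latter. The p-values measure the spread between these libraries. Results for 1 gene used in the correlations are not reported here.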

Additional observations from a re-analysis of the deposited data

Results flagged for a closer look

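For 20 named members and the 2 class scores the highest or lowest mouse of each group of 4 or more was compared with the others, and a mouse was listed where its gap to the nearest mouse took an unusual share of the group's range by Dixon's criterion. Of 88 groups checked 7 were listed, and chance alone lists about 1 in 20. HET replicate 1 was high within HET of batch 1 for Oasl1, at 2.07 CPM against 1.15 to 1.46 in the others, and for Mx1, at 1.46 CPM against 0.776 to 0.969. Irgm1 was high in WT replicate 5 of batch 1, at 44.6 CPM against 34.3 to 36.8, and in WT replicate 8 of batch 2, at 64.3 CPM against 43.2 to 48.5. Gbp2 was high in HET replicate 11 of batch 2, at 27.9 CPM against 14.1 to 17.9. Stat2 was low in HET replicate 12 of batch 2, at 17.1 CPM against 20.9 to 23.5. Rtp4 was high in HET replicate 8 of batch 2, at 6.05 CPM against 4.63 to 5.22.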

How the results depend on the processing

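No paired analysis was possible because the labels give no replicate numbers and the numbers used here follow deposition order. The counts of members called higher between batches stayed within 1.5 times under every alternative run. On the TPM scale the whole distribution shifted between batches, with medians of all genes of 0.89 at a pseudocount of 0.1 and 0.69 at 1 (0.78 and 0.60 in HET, 1.02 and 0.80 in WT). The type I medians there were 1.23 and 0.98 (1.11 and 0.84 in HET, 1.36 and 1.13 in WT) and the interferon-gamma medians 1.27 and 1.07 (1.15 and 0.96 in HET, 1.41 and 1.24 in WT). After rescaling of TPM by median ratios the type I median in WT was 0.28, and 1 member, Parp14 (-0.19), was called lower in HET. For the interaction, log2(TPM + 0.1) gave medians of -0.27 for type I and -0.32 for interferon-gamma members, with all genes at -0.20. DESeq2 called 1 member lower in HET of batch 2, Gbp9. For HET against WT over all mice several signs near 0 turned. Gbp2 was -0.0682 in batch 2, -0.042 and -0.043 on the TPM scales and -0.0733 without the 3 libraries. Irf7 was 0.156 in batch 1 and 0.0116 with no batch covariate, and Oasl2 was 0.0666 and 0.0204 in these and 0.0045 on rescaled TPM. Oas2 was 0.0111 on rescaled TPM, Gbp9 0.0244 in batch 1, Rtp4 -0.0228 in batch 2 and Isg15 -0.0127 without the 3 libraries. With each library left out in turn the values ran from -0.0623 to 0.113 for Gbp2, -0.0507 to 0.0486 for Irf7, -0.0412 to 0.0174 for Oasl2 and -0.0105 to 0.124 for Isg15, and no member was called between genotypes in any leave-one-out fit. The members called higher between batches ran from 33 to 36 over all mice, 19 to 26 in HET and 23 to 31 in WT. Genes called in batch 2 between genotypes ran from 1 to 3 over these fits, 27 by DESeq2, 3 with no filter and 0 on log2(TPM + 1), and in batch 1 they were 1 by DESeq2 and with no filter and 2 without the 3 libraries, as over all mice. Between batches 15784 genes were called on log2(TPM + 1) in HET and 16564 in WT, against 9414 and 9242 by edgeR on counts. The causes were not tested.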
